A study of Homo sapiens with 6 samples.

Results

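The SOX genes SOX4, SOX5, SOX6, SOX12 and SOX13 were followed in RNA-seq libraries of cells labelled as a myeloma line, with and without knockdown of IGF2BP1, an RNA-binding protein of the insulin-like growth factor 2 mRNA-binding family. These 5 of the 20030 genes in the deposited table were chosen by their gene symbols, with their KD and NC values of these same libraries known, so the levels and differences given for them are a description and carry no test. The lists of related genes below were also chosen with earlier results of these data known. Their counts of calls and their p-values are likewise a description. The cells were labelled H929 (NCI-H929), an established human multiple myeloma line, and 3 libraries came from IGF2BP1-KD cells and 3 from IGF2BP1-NC cells. By the study's methods, KD was made with a lentiviral short hairpin RNA against IGF2BP1 in a vector with puromycin resistance, and stable cells were selected by drug. The NC group is labelled as the negative control of IGF2BP1, and its vector is not given in the sources used here. Which of the study's hairpins was sequenced is not given in the sources used here, and neither is whether the 3 libraries of a group were grown as separate cultures. P-values therefore measure the spread between these libraries, which may be technical.

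SOX proteins are transcription factors that bind and bend DNA through a conserved HMG (high mobility group) box. SOX4 and SOX12 belong to the SOXC subgroup, which is known in progenitor cells and in tumors. SOX5, SOX6 and SOX13 form the SOXD subgroup, which has no activation domain of its own, pairs through a coiled coil and acts with partner proteins. SOX5 and SOX6 are best known from cartilage, and SOX6 is also known to silence the embryonic and fetal globin genes in erythroid cells together with BCL11A and GATA1.

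The shared box and the subgroups can be seen in the coding sequence itself. The 60 bases at the start of each HMG box are given here on the coding strand of GRCh38, because this box is what makes the 5 genes a family, and its bases set the subgroups apart. The 27 bases in capitals encode a stretch of amino acids that is the same in all 5 genes. The SOXC stretches lie at chr6:21594709-21594768 (plus strand, SOX4) and chr20:326042-326101 (plus strand, SOX12). The SOXD stretches lie at chr12:23543257-23543316 (minus strand, SOX5), chr11:15989043-15989102 (minus strand, SOX6) and chr1:204123699-204123758 (plus strand, SOX13), and each stretch lies within 1 exon.
SOX4: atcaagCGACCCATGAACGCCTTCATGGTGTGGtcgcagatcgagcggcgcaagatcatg
SOX12: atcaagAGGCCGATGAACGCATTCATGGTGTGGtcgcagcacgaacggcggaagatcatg
SOX5: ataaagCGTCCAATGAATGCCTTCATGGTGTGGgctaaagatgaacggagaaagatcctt
SOX6: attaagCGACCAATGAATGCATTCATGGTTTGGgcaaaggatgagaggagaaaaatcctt
SOX13: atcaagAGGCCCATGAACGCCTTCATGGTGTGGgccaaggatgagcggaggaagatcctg

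Over the whole box of 237 bases (79 codons), SOX4 and SOX12 were identical at 82.3% of bases. SOX5 was identical to SOX13 at 83.5% and to SOX6 at 81.0%, and SOX6 to SOX13 at 79.7%. Between the subgroups identity lay between 56.5% and 65.8%. The longest stretch of identical bases shared by any pair of full mRNAs was 33 bases, between SOX4 and SOX12. SOX5 has a processed pseudogene, SOX5P1, which shared 5 of the 7027 stretches of 50 bases of the SOX5 mRNA (0.0712%) and is not among the genes counted.

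The genes differed in structure. In the GENCODE release 44 annotation of GRCh38, SOX12 (NCBI gene 6666) occupies chr20:325552-330224 and SOX4 (NCBI gene 6659) occupies chr6:21593751-21598619, both on the plus strand and each with 1 exon. SOX5 (NCBI gene 6660) spans 1030 kb at chr12:23529504-24562544, minus strand, with 15 exons in its reference mRNA and 23 annotated transcripts. SOX6 (NCBI gene 55553) spans 773 kb at chr11:15966449-16739591, minus strand, with 16 exons and 19 transcripts. SOX13 (NCBI gene 9580) spans 54.6 kb at chr1:204073115-204127743, plus strand, with 14 exons and 10 transcripts. The 3′ untranslated region made up 39.5% of the reference mRNA of SOX13, 54.6% of SOX4, 66.6% of SOX5, 68.4% of SOX6 and 71.7% of SOX12.

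Total counts lay between 16885449 and 18112179 per library, where 3 counts are 0.166 to 0.178 CPM (counts scaled to the library total). IGF2BP1 itself had 7550, 6904 and 8055 counts in the NC libraries and 2193, 1980 and 2019 in the KD libraries, so each library had the IGF2BP1 level of its label (log2 fold change -1.85, with a standard error, SE, of 0.065). The label of the cells was checked against marker lists. Of 13 plasma cell markers, 7 never exceeded 3 counts, including CD38, IRF4 and TNFRSF17, and CD27 was at 0 in every library. All 16 erythroid markers were above 1 CPM in every library, and their summed level was 9050 to 10800 CPM in NC and 9870 to 10700 CPM in KD. Of the erythroid markers, 7 were called lower in KD and none higher, while 14.5% of all tested genes were called lower and 13.7% higher. Summed plasma cell markers were at 77.2 to 162 CPM in NC and 81.1 to 87.2 CPM in KD. Most of this sum was XBP1, at 155, 78.3 and 71.3 CPM in NC and 71.7, 75.9 and 67.8 in KD. Of the 5 markers that could be tested SLAMF7 was called higher (4, 5 and 4 counts in NC, 52, 42 and 181 in KD). With 7 of 13 markers of the labelled cell type at or near 0, the cells are called here by their label only. Summed levels of 10 granulocyte markers were 27.5 to 38.0 CPM in NC and 198 to 504 CPM in KD, and 3 of the 5 tested ones rose (PRG2, EPX and MS4A3), beside 13.7% of all tested genes. Most of the KD sums came from PRG2 (82.3, 97.4 and 231 CPM) and MS4A3 (112, 119 and 256 CPM). PRTN3 and AZU1 were also tested and did not pass the threshold. None of the 10 was at 0 in all libraries. The part of these cells or transcripts in the SOX values was not tested, and in such bulk libraries fewer cells of a type cannot be told apart from less RNA per cell.

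The SOX repertoire of the cells was narrow. The table held 19 SOX genes, of which 4 had enough counts to be tested, namely SOX12, SOX18, SOX6 and SOX5. A further 7 (SOX1, SOX2, SOX3, SOX10, SOX11, SOX14 and SOX21) were at 0 in all 6 libraries. A 0 in a single library, taken alone, allows up to 3 expected counts there, and 0 in all 6 bounds the level more tightly. The remaining 8, SOX4 and SOX13 among them, had at most 13 counts in any library. SOX11, the other SOXC gene, was thus not detected at this depth, and SOX12 was the SOXC gene that could be tested.

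By FPKM, which relates counts to gene length and library total, the 19 SOX genes summed to 20.4, 20.9 and 20.3 in the NC libraries and to 15.1, 15.9 and 14.9 in the KD libraries. The means were 20.6 ± 0.326 (SD, n = 3) and 15.3 ± 0.524 (SD, n = 3), and the groups did not overlap. SOX12 made up 56.5% ± 4.81 of this sum in NC and 63.7% ± 4.52 in KD (SD, n = 3). SOX18, an endothelial and lymphatic regulator of the SOXF subgroup, made up 28.7% ± 3.15 and 28.1% ± 3.95. The SOXD genes SOX5, SOX6 and SOX13 together made up 18.7%, 9.33% and 11.2% in the NC libraries and 6.31%, 6.64% and 4.56% in the KD libraries. The SOXD share was thus lower in every KD library than in any NC library. SOX13 added a mean of only 0.0507 FPKM in NC and 0.0187 in KD. The SOXD share is therefore nearly that of SOX5 and SOX6, which were picked with their values known. These shares depend on the gene length behind the FPKM of SOX5. With the length of the reference mRNAs instead, the SOXD share was 33.4%, 16.4% and 18.1% in NC and 9.35%, 9.91% and 6.27% in KD, and the groups again did not overlap. These shares are too high if reads outside the reference mRNA were counted for SOX5, which was not tested.

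Of the 5 members, 3 had enough counts for edgeR's quasi-likelihood test, and SOX4 and SOX13 did not. All 3 tested members were past an adjusted p of 0.05 in the direction of lower expression in KD, a call that 14.5% of the 11994 tested genes had, while 13.7% were called higher and 28.2% in either direction. The groups of all 3 did not overlap in CPM after edgeR's TMM scaling of the library totals. This held for 45.6% of tested genes, and for 23.2% with KD lower. SOX5 and SOX6 also differed by at least 2-fold, as did 1.67% of tested genes in that direction. The members were picked with these differences known, so nothing is read from these counts. The median log2 fold change of all tested genes was -0.005.

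**Figure D1:**
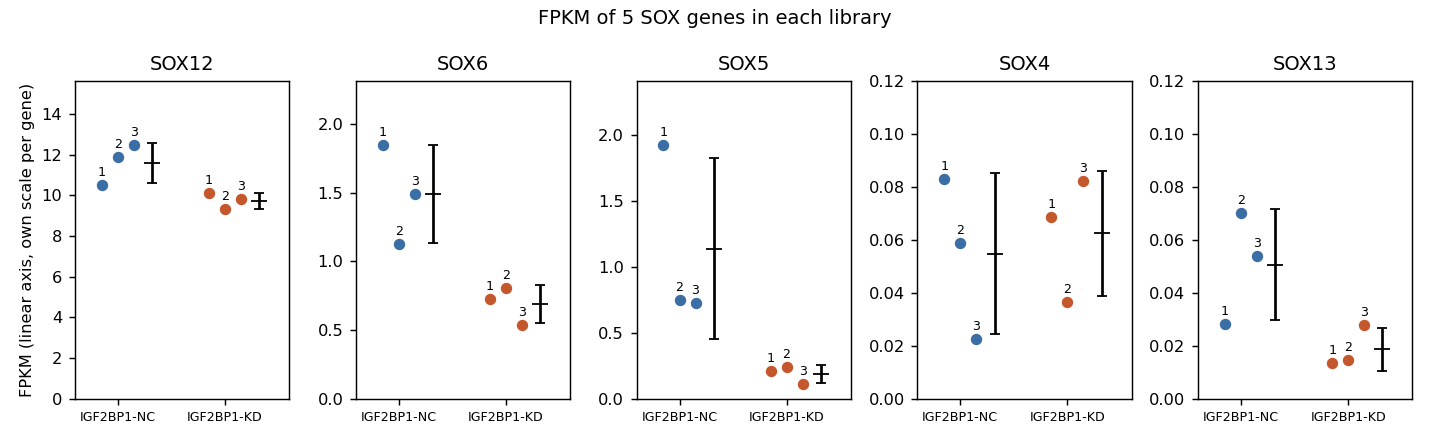
FPKM (vertical axis, linear, own scale for each gene) of the 5 SOX genes in each library, numbered as labelled, with the mean and SD of each group (n = 3) beside the points. SOX12, SOX6 and SOX5 lie lower in every KD library than in any NC library, and SOX5 of NC library 1 stands far above the other NC libraries. SOX4 and SOX13 stay under 0.09 FPKM, and SOX13 separates only by 0.028 in KD against 0.0282 in NC.

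SOX12 was the most highly expressed SOX gene. Its counts were 850, 964 and 1051 in the NC libraries and 840, 732 and 798 in the KD libraries. The FPKM was 10.5, 11.9 and 12.5 in NC and 10.1, 9.31 and 9.84 in KD, which is 11.6 ± 0.984 against 9.74 ± 0.395 (SD, n = 3). The groups did not overlap, but the lowest NC library (library 1) and the highest KD library (library 1) lay close together. The log2 fold change was -0.27 (SE 0.084), a 1.2-fold lower level in KD, and 18.4% of the tested genes had a lower log2 fold change. Leaving out 1 library at a time, the value lay between -0.34 and -0.21. It was past the threshold without NC library 1, where it was -0.34, and not without any of the other 5 libraries.

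The start of SOX12 is rich in CG dinucleotides. Its promoter (250 bases before the RefSeq start and 50 after it, GRCh38.p14, chr20:325302-325601, plus strand) is shown because SOX12, SOX5 and SOX6 were all lower in KD, so that their starts can be compared. It held 54 CG dinucleotides, more than 99.5% of 34796 RefSeq promoters of the same length, whose median was 14. It held no match on either strand to AACAATG or to the other form of the SOX site, AACAAAG, and none to the GATA site AGATAA, which says only that these letters are not in this window. Of all promoters, 3.33% held the first, 5.21% the second and 10.4% the third.
SOX12 promoter: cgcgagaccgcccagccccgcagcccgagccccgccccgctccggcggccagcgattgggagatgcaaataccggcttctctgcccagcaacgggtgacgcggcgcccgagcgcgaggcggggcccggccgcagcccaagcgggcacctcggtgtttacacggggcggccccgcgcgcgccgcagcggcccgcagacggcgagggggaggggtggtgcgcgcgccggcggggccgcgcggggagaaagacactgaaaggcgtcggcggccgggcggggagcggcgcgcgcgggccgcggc

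SOX5 had the largest difference of the 4 tested SOX genes and the widest spread. Its counts were 756, 295 and 299 in the NC libraries and 86, 91 and 44 in the KD libraries. The FPKM was 1.93, 0.748 and 0.730 in NC and 0.213, 0.238 and 0.112 in KD, which is 1.14 ± 0.688 against 0.188 ± 0.0669 (SD, n = 3). NC library 1 stood well above the other NC libraries, and the highest KD library was still below the lowest NC library. The coefficient of variation of FPKM was 60.5% in NC and 35.7% in KD. The log2 fold change was -2.60 (SE 0.56), a 6.07-fold lower level in KD, and 7 of the tested genes (0.0584%) had a lower one.

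The height of NC library 1 bears on this value. SOX5 was 2.54-fold higher there than the mean of NC libraries 2 and 3, and 99.3% of tested genes had a smaller excess in that library. Without NC library 1 the log2 fold change of SOX5 was -2.0 (SE 0.24), and leaving out any 1 library it lay between -2.83 and -2.0. The call was lost without KD library 1, 2 or 3, where the log2 fold change was -2.70, -2.81 and -2.33. TRIB3, a stress-induced pseudokinase that lies near SOX12, had 4110 counts in NC library 1 against 1384 and 1491 in the other NC libraries, and XBP1, a regulator of the unfolded protein response, had 2689 against 1365 and 1292. These 2 genes were named after their values had been seen, and what sets NC library 1 apart was not tested.

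**Figure D2:**
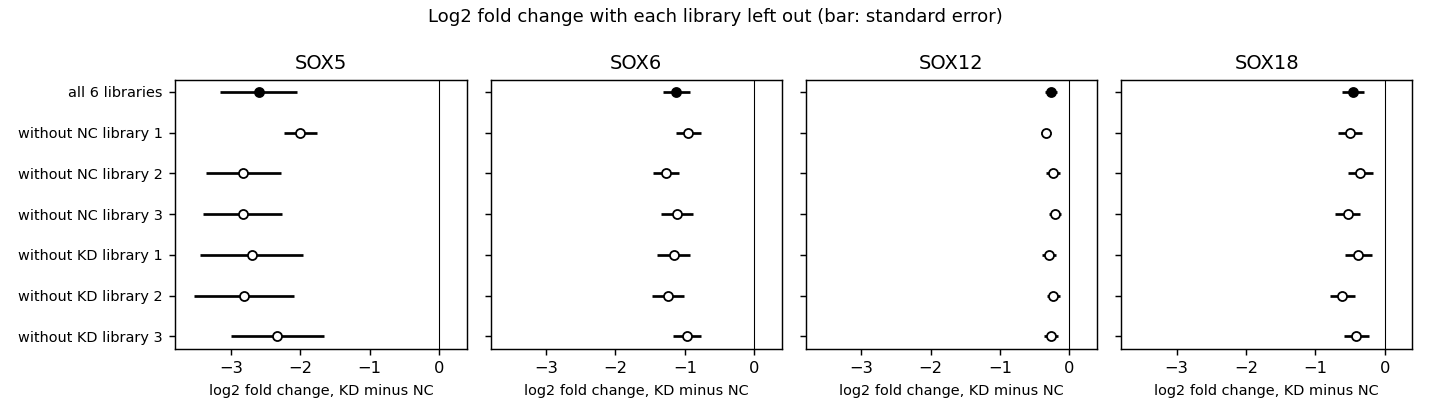
Log2 fold change between IGF2BP1-KD and IGF2BP1-NC (horizontal axis, bars are SE) of SOX5, SOX6, SOX12 and SOX18 with all 6 libraries (filled) and after leaving out 1 library at a time (open). Every value lies below 0, and SOX5 ranges from -2.83 to -2.0, with the smallest difference when NC library 1 is left out.

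The level of SOX5 relative to SOX6 depended on the gene length used. The deposited FPKM of SOX5 corresponded to a length of 22616 bases, 3.2 times its reference mRNA of 7076 bases, whereas for SOX4, SOX6, SOX12 and SOX13 the ratio was between 0.997 and 1.01. Per kb of the reference mRNA, the CPM of SOX5 was 6.17, 2.39 and 2.33 in NC and 0.679, 0.762 and 0.357 in KD. That of SOX6 was 1.86, 1.14 and 1.5 in NC and 0.733, 0.808 and 0.543 in KD. On this scale SOX5 lay above SOX6 in every NC library and below it in every KD library. If reads outside the reference mRNA were counted for SOX5, this scale overstates its level, which was not tested. By FPKM the NC values of SOX5 and SOX6 overlapped (0.730 to 1.93 against 1.13 to 1.85), and SOX5 was lower in every KD library.

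On the FPKM scale the order of mean NC levels of the 5 members and SOX18 was SOX12, SOX18, SOX6, SOX5, SOX4 and SOX13, at 11.6, 5.91, 1.49, 1.14, 0.0548 and 0.0507. SOX12 and SOX18 did not overlap, nor did SOX18 and SOX6, nor SOX5 and SOX4. SOX6 and SOX5 overlapped, and so did SOX4 and SOX13, so neither pair differed beyond its spread. In NC, 75.4% of all genes in the table had a lower mean FPKM than SOX12, 52.2% than SOX6 and 50.6% than SOX5.

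SOX5 is shown with the promoter of its RefSeq start (GRCh38.p14, chr12:24562442-24562741, minus strand), which lies 612821 bases upstream of the start of its reference mRNA. The window held 29 CG dinucleotides and 1 AACAATG match, on the opposite strand, in capitals at 180 bases before the start. It held no match to AACAAAG and none to AGATAA.
SOX5 promoter: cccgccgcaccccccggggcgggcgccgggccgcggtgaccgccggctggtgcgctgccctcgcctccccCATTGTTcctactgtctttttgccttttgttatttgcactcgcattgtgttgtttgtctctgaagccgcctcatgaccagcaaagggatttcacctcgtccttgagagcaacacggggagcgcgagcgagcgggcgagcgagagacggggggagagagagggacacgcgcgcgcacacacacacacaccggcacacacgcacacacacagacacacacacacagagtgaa

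SOX6, which pairs with SOX5 in cartilage, was lower in KD by all alternatives tried. Its counts were 300, 185 and 252 in the NC libraries and 122, 127 and 88 in the KD libraries. The FPKM was 1.85, 1.13 and 1.49 in NC and 0.728, 0.803 and 0.540 in KD, which is 1.49 ± 0.358 against 0.690 ± 0.136 (SD, n = 3). All KD libraries lay below all NC libraries, and NC library 1 was again the highest and KD library 3 the lowest, as for SOX5. The log2 fold change was -1.12 (SE 0.20), a 2.17-fold lower level in KD, and 1.53% of tested genes had a lower one. With each library left out it lay between -1.27 and -0.95 and was past the threshold each time. SOX6 overlaps C11orf58 on the opposite strand by 126460 bases of its locus, and the exons of the reference mRNAs share no base.

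RefSeq lists 5 starts for SOX6. The promoter at the start of its reference mRNA (GRCh38.p14, chr11:16356497-16356796, minus strand) is shown as the counterpart of the SOX12 promoter, which also lies at the start of its reference mRNA. It held 2 CG dinucleotides, an AACAATG match at 117 bases before the start and an AACAAAG match on the opposite strand at 186 bases before it, both in capitals. It held no AGATAA match. The other 4 windows held 0 to 22 CG dinucleotides, with the 22 at the most upstream start, and 1 of them held an AGATAA match and another an AACAATG match.
SOX6 promoter: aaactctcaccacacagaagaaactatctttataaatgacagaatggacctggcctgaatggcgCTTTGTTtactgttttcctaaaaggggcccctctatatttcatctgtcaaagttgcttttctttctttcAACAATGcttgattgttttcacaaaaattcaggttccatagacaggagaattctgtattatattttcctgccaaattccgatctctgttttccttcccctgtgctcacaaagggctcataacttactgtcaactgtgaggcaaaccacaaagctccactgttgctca

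SOX4 and SOX13 were at the limit of detection. SOX4, a common oncogenic SOX factor, had 7, 5 and 2 counts in the NC libraries and 6, 3 and 7 in the KD libraries. The groups overlapped throughout, and the ratio of the summed CPM of KD to NC was 1.16 with a 95% exact interval from 0.529 to 2.56. SOX13, a SOXD gene known in T cells and as an autoantigen, had 2, 5 and 4 counts in NC and 1, 1 and 2 in KD. Its groups did not overlap by FPKM, but the lowest NC value (0.0282) and the highest KD value (0.028) were both 2 counts. Its sums of 11 and 4 counts gave a ratio of 0.368 with an interval from 0.0855 to 1.24. These intervals cover counting error only, and a difference between KD and NC was not detectable for either gene at this depth. Both genes were above 0 in every library, at 0.0548 ± 0.0303 and 0.0507 ± 0.0211 FPKM in NC (SD, n = 3) and 0.0625 ± 0.0236 and 0.0187 ± 0.00809 in KD (SD, n = 3).

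IGF2BP1 is known to bind mRNAs at methylated adenosines within GGAC, so the reference mRNAs were searched for TGGAC on the sense strand. SOX5 held 2 matches (0.283 per kb), SOX4 held 3 (0.616 per kb), SOX6 held 7 (0.752 per kb), SOX12 held 5 (1.07 per kb) and SOX13 held 5 (1.23 per kb). The median of 19061 reference mRNAs was 1.16 per kb, and 9.73% of them had fewer matches per kb than SOX5. A match is a string of letters in the annotation, and no binding or methylation was measured in these libraries.

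Among the 14 other SOX genes, 1 could be tested. SOX18 had 169, 200 and 163 counts in NC and 115, 149 and 119 in KD. The groups did not overlap, and the difference of -0.46 on the log2 scale (SE 0.16) did not pass the threshold (Benjamini-Hochberg adjusted p = 0.0548, edgeR quasi-likelihood test). It passed in 6 of the 16 alternatives tried, among them without NC library 1 (adjusted p = 0.0454, edgeR) and without KD library 2 (adjusted p = 0.0377, edgeR). SOX17, an endothelial and endodermal SOXF factor, had 3, 8 and 3 counts in NC and 1 in each KD library (ratio 0.217, 95% exact interval 0.0400 to 0.778). SOX7, the third SOXF gene, had 3, 7 and 7 counts in NC and 3, 13 and 8 in KD (ratio 1.43, interval 0.737 to 2.84). SOX15 had 0, 0 and 1 counts in NC and 4, 1 and 1 in KD, and SOX8, SOX9 and SOX30 had at most 4 counts in any library. These 6 genes had too few counts for the test across genes. Their intervals cover counting error only and are not adjusted for the number of genes, so no fall of SOX17 is read from its interval.

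Of 25 other genes with an HMG box, 20 could be tested, of which 5 fell, 1 rose and 14 did not pass the threshold. Their median log2 fold change was -0.08, beside -0.005 over the 11994 tested genes, of which 14.5% fell and 13.7% rose. The strongest falls were in TCF7L2 and LEF1 of the TCF/LEF family, the DNA-binding end of Wnt signaling. TCF7 of that family gave -0.34 (SE 0.11). TCF7L1 had 4, 4 and 2 counts in NC and 4, 6 and 7 in KD and could not be tested. TCF7L2 had 50, 43 and 38 counts in NC and 21, 16 and 18 in KD, so the groups did not overlap. It fell by 1.24 on the log2 scale (SE 0.27, Benjamini-Hochberg adjusted p = 0.00608, edgeR quasi-likelihood test). LEF1 had 651, 602 and 651 counts in NC and 432, 406 and 286 in KD, and fell by 0.75 (SE 0.13, adjusted p = 0.00298, edgeR). HMG20B, a subunit of a corepressor complex with LSD1, fell by 0.40 (SE 0.097, adjusted p = 0.0120, edgeR), a call lost without NC library 2 or KD library 2. The gene that rose was HMGB2, a chromatin protein of dividing cells (log2 fold change 0.25, SE 0.069, adjusted p = 0.0185, edgeR). HMGB2 was not past the threshold without NC library 2 or 3 or KD library 1 or 2. The number of the 20 genes called was 2 without NC library 2 or KD library 2 and 3 without NC library 3 or KD library 1.

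**Figure D3:**
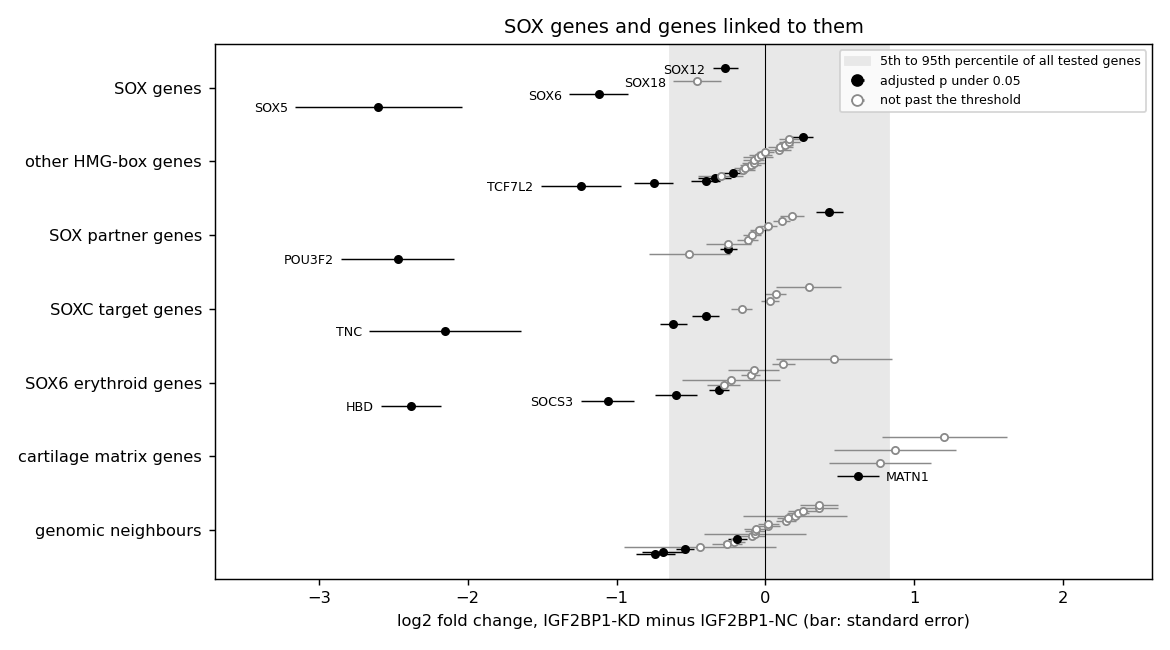
Log2 fold change between IGF2BP1-KD and IGF2BP1-NC (horizontal axis, bars are SE) of the tested SOX genes and of the tested genes of 6 related groups (rows), filled where the adjusted p is under 0.05, with the 5th to 95th percentile of all tested genes shaded. SOX5, SOX6, TCF7L2, LEF1, POU3F2, TNC, HBD, SOCS3, C20orf96 and BCAT1 lie to the left of the shaded range. COL9A2 and COL9A3 lie to the right of it, and the other genes lie within it.

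Of 12 genes whose products are known to act with SOX proteins, 11 could be tested, of which 2 fell, 1 rose and 8 did not pass. Over all tested genes 14.5% fell and 13.7% rose, and nothing is read from the calls of this list. POU3F2, a neural POU-domain factor and known partner of SOX proteins on DNA, had 34, 48 and 59 counts in NC and 12, 4 and 9 in KD. It fell by 2.47 on the log2 scale (SE 0.38, Benjamini-Hochberg adjusted p = 0.000965, edgeR quasi-likelihood test). GATA1, the master erythroid factor, was abundant at 186 ± 9.71 FPKM in NC and 158 ± 2.45 in KD (SD, n = 3). It fell by 0.25 (SE 0.058, adjusted p = 0.00918, edgeR) and was not past the threshold without KD library 2. BCL11A, the globin repressor that acts with SOX6, had 0 counts in 5 libraries and 2 in KD library 3, and its level could not be compared. SDCBP, a scaffold protein that binds SOX4, rose by 0.43 on the log2 scale (SE 0.091, adjusted p = 0.00658, edgeR). Without NC library 1, 5 of the 11 genes were called.

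Among 10 genes described as targets of SOXC factors, 7 could be tested, of which 3 fell and 4 did not pass. TUBB3, the neuronal beta-tubulin, fell by 0.62 (SE 0.090, Benjamini-Hochberg adjusted p = 0.000666, edgeR quasi-likelihood test). TEAD2, a partner of the Hippo coactivators, fell by 0.40 (SE 0.090, adjusted p = 0.00791, edgeR). TNC, a matrix glycoprotein, had 19, 28 and 12 counts in NC and 7, 2 and 4 in KD and fell by 2.15 (SE 0.51, adjusted p = 0.0103, edgeR), a call that was lost without NC library 2. The median log2 fold change of the 7 was -0.16, beside -0.005 over all tested genes, of which 14.5% fell.

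Of 11 genes described in the erythroid action of SOX6, 10 could be tested, of which 4 fell and 6 did not pass, with a median log2 fold change of -0.25. Over all tested genes 14.5% fell and the median was -0.005. HBD, the minor adult globin, had 358, 424 and 627 counts in NC and 98, 84 and 86 in KD and fell by 2.38 on the log2 scale (SE 0.20, Benjamini-Hochberg adjusted p = 7.4e-05, edgeR quasi-likelihood test). SOCS3, a feedback inhibitor of cytokine signaling, had 165, 135 and 127 counts in NC and 69, 75 and 60 in KD and fell by 1.06 (SE 0.18, adjusted p = 0.00184, edgeR). HBA2, an adult alpha globin, fell by 0.60 (SE 0.14, adjusted p = 0.0152, edgeR) and was not past the threshold without NC library 3, KD library 1 or KD library 3.

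The embryonic and fetal globins are the genes SOX6 is known to silence, and HBE1 was the most counted gene of that list. HBE1 had 78172, 87718 and 81564 counts in NC and 95239, 91867 and 79999 in KD, and the groups overlapped. The difference was 0.12 on the log2 scale (SE 0.079, Benjamini-Hochberg adjusted p = 0.296, edgeR quasi-likelihood test). HBG2 had 16934, 18630 and 19437 counts in NC and 15708, 14626 and 13883 in KD and fell by 0.31 (SE 0.068, adjusted p = 0.0073, edgeR). HBG1 gave -0.08 (SE 0.17, adjusted p = 0.779, edgeR). HBG1 and HBG2, and likewise HBA1 and HBA2, are near-identical copies whose reads the counting could split, so their single values are uncertain.

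Of 13 cartilage matrix genes, the classical setting of SOX5 and SOX6, 4 could be tested, of which 1 rose and 3 did not pass. Of all tested genes 13.7% rose. The median log2 fold change of the 4 was 0.82, beside -0.005 over all tested genes. COL9A2, COL9A3 and COL11A2 gave 1.2, 0.87 and 0.77 (SE 0.42, 0.41 and 0.34) at 5 to 62 counts and did not pass. MATN1, a cartilage matrix protein, had 102, 108 and 108 counts in NC and 153, 160 and 173 in KD (log2 fold change 0.62, SE 0.14, Benjamini-Hochberg adjusted p = 0.00815, edgeR quasi-likelihood test). COL2A1 and ACAN, the main matrix genes of cartilage, had at most 3 counts in any library. Without NC library 1 or KD library 2, 2 genes of this list were called.

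The genes that flank the SOX genes were examined next, 3 on each side, which gave 30 genes. Of these, 20 could be tested, of which 4 fell, none rose and 16 did not pass, with a median log2 fold change of -0.07. The 4 of 20 that fell stand beside 14.5% of all tested genes that fell. C20orf96, 34.8 kb from SOX12, fell by 0.74 (SE 0.13, Benjamini-Hochberg adjusted p = 0.00192, edgeR quasi-likelihood test). ZCCHC3 and NRSN2, which lie between C20orf96 and SOX12 and just past SOX12, did not pass (0.14 and -0.26 on the log2 scale). Beside SOX5, BCAT1, a branched-chain amino acid transaminase 247 kb away, fell by 0.69 (SE 0.14, adjusted p = 0.0091, edgeR). ETNK1, on the other side of SOX5, gave -0.07.

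C11orf58, which overlaps SOX6 on the opposite strand, had 2227, 2426 and 2487 counts in NC and fell by 0.54 (SE 0.063, Benjamini-Hochberg adjusted p = 0.000197, edgeR quasi-likelihood test). The strand setting of the counting is not given in the sources used here, so reads of SOX6 and C11orf58 outside their reference exons could have been assigned to either. The fourth gene that fell was E2F3, on the SOX4 side, by 0.19 (SE 0.064, adjusted p = 0.0468, edgeR). It was named after its value had been seen and passed in 1 of the 10 alternatives that kept all libraries. Without NC library 1, 9 of the 20 tested neighbours were called.

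The genes whose profile over the 6 libraries was most like each tested SOX member were found by the root mean square (RMS) difference of log2 CPM after centring each gene on its mean. Some classes of gene symbols, given with the processing below, were passed over. Nearest to SOX5 were PDE4DIP, a centrosomal and Golgi scaffold (0.41), and CCND2, a D-type cyclin (0.45). PDE4DIP had 2508, 1629 and 1604 counts in NC and 323, 347 and 341 in KD, and CCND2 had 1654, 966 and 841 in NC and 318, 308 and 278 in KD. Both shared the high NC library 1 of SOX5, and 0 genes came within 0.3 of it.

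Nearest to SOX6 were THRB, a thyroid hormone receptor (0.15), and KBTBD8, a ubiquitin ligase adaptor (0.17). THRB had 503, 384 and 424 counts in NC and 207, 223 and 192 in KD. For SOX6, 121 genes came within 0.3. Nearest to SOX12 were KLF1, an erythroid transcription factor (0.019), and HK2, a hexokinase (0.032), but 7524 genes came within 0.3 of SOX12, whose level varied little. The RMS difference of SOX5 was 0.78 from SOX6 and 1.3 from SOX12. These likenesses are over 6 libraries that share their groups, and nothing on shared control is drawn from them.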

How the data were processed

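RNA of cells labelled H929 was sequenced in 6 libraries, 3 IGF2BP1-KD and 3 IGF2BP1-NC, grouped by their labels. The authors used Trimmomatic for trimming, HISAT2 for alignment to GRCh38 and HTSeq-count for the counts per gene, which they deposited as raw whole numbers. The FPKM values in the deposited table are described by the authors as made with Cufflinks. Versions, annotation release and strand setting are not given in the sources used here, and the library kit was stranded.

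Counts of 20030 genes were fitted in edgeR 4.0.16 under R 4.3.3 (filterByExpr, TMM factors, robust glmQLFit, two-sided glmQLFTest). Benjamini-Hochberg adjustment ran over the 11994 genes tested, and genes were called at an adjusted p under 0.05. The SE of an edgeR fold change was derived as the absolute log2 fold change divided by the square root of its quasi-likelihood F statistic. DESeq2 1.42.0 and limma 3.58.1 (voom, or log2(FPKM + 1) with a mean FPKM of at least 1) served as alternatives, with other scalings and filters, a replicate block and each library left out. Total counts were 16885449 to 18112179 per library, which sets the precision of low genes, and intervals of summed counts are exact 95% intervals. The edgeR, DESeq2 and limma fits were tested on simulated data, with the same dispersion for every gene and changes planted only in well-counted genes. That setting does not cover a spread as wide as that of SOX5 in NC.

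The SOX genes and all lists were chosen with earlier results of these data known. Named from each other list and from the neighbours were up to 3 called genes in each direction with the largest log2 fold change, with HBE1, HBG1, HBG2, BCL11A and GATA1 in any case. For each tested SOX member, the 2 genes of nearest profile at a mean log2 CPM of 3 or more were also named. That search passed over SOX members and symbols that hold orf or begin LOC, LINC, MIR, SNOR, AC or AL followed by digits. TRIB3, XBP1, E2F3, ZCCHC3, NRSN2, ETNK1, COL2A1, ACAN, COL9A2, COL9A3, COL11A2, TCF7, TCF7L1, PRTN3 and AZU1 were added after their values had been seen. The value of 1 further neighbour of SOX5, which is in the counts of neighbours but not in their plot, is not reported here. Gene structures are from GENCODE release 44, which held 18686 of the 20030 symbols. Promoters are from RefSeq, with SOX4 and SOX13 also matched. Further steps used Python 3.11.15, pandas 2.3.3, scipy 1.17.1 and matplotlib 3.10.9.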

Additional observations from a re-analysis of the deposited data

How the results depend on the processing

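Directions of SOX5, SOX6 and SOX12 were the same under every alternative run. SOX6 was called in 16 of 16 alternatives, SOX5 in 9 of 14 and SOX12 in 8 of 16. Outside the fits that left out a library, SOX5 was lost without a filter on low counts and with limma-voom, and SOX12 with upper-quartile factors, with the replicate block and with unfiltered log2(FPKM + 1). The cause was not tested. On the log2(FPKM + 1) scale, which understates low genes, SOX5 gave -0.80 without a filter and SOX6 gave -0.55 with and without one. SOX5 has a mean FPKM under 1 and gave no value with the filter.

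A fold of at least 2 left 567 genes called, 1 other HMG-box gene, 1 SOX partner, 1 SOXC target, 2 SOX6 erythroid genes, 0 cartilage genes and 0 neighbours. SOX18 was the 1 other SOX gene called with no filter on low counts, with the replicate block and with log2(FPKM + 1) and log2(FPKM + 0.1). Called HMG-box genes were 3 with unfiltered log2(FPKM + 1), and cartilage genes 2 with DESeq2, with no filter and with unfiltered log2(FPKM + 1).

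With each library left out, the genes called were 2290 to 3991, SOX members 1 to 3, other SOX genes 0 to 1, HMG-box genes 2 to 7, partners 2 to 5, SOXC targets 2 to 4, SOX6 erythroid genes 3 to 5, cartilage genes 1 to 2 and neighbours 3 to 9. The 1 SOX member left without KD library 1, 2 or 3 was SOX6. The log2 ratio of summed CPM was -0.17 to 0.64 for SOX4 and -1.86 to -1.14 for SOX13.

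Replicate numbers were shared by the labels, which do not say whether same-numbered libraries were handled together. With 3 libraries per group, the correlations below cannot decide this. Correlations of deviations between same-numbered libraries were -0.052, 0.0363 and -0.106, and 1 of the 3 NC libraries (library 2) correlated best with its own number. With the replicate block 2913 genes were called, SOX5 gave -2.53, SOX6 -1.11, SOX12 -0.26 and SOX18 -0.47. The SE of SOX5 was 0.31 with the block and 0.56 without it, and that of SOX6 was 0.20 in both. Depth limits SOX4, SOX13 and the other SOX genes under 14 counts.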
